A study of Mus musculus with 20 samples.

Results

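Knockdown of Foxk1 was compared with its own control in 3T3-L1 adipocytes, fat cells made in culture from a Swiss mouse preadipocyte line. The comparison takes the 3 libraries labelled with a Foxk1 short hairpin RNA (shRNA) against the 3 libraries of the matching scrambled shRNA, 6 of the 20 libraries of a study that also overexpressed Foxk1 and raised or lowered its paralogue Foxk2. All 6 libraries are total RNA from cells that went through the same differentiation. The inducing medium held insulin at 5 µg/ml, the glucocorticoid dexamethasone at 1 µM, the phosphodiesterase inhibitor IBMX at 0.5 mM and the PPARG agonist troglitazone at 10 µM, insulin alone was kept from day 4, and plain growth medium followed from day 6. The sequence of the hairpin, the number of infected cell pools or clones and the day of harvest are not given in the sources used here. Of 48440 genes in the table of RPKM values (reads per kilobase of transcript scaled to the assigned reads of the library), the 14504 with 0.5 RPKM or more in at least 2 of the 6 libraries were tested.

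FOXK1 and FOXK2 are forkhead transcription factors that bind DNA and recruit the Sin3 corepressor, and insulin and mTOR signalling control their entry into the nucleus. In muscle they are known for holding back autophagy genes, and in fat and muscle cells for a part in the use of glucose by glycolysis. 3T3-L1 preadipocytes become adipocytes through PPARG and C/EBP factors, after which they take up glucose in response to insulin, build fatty acids and triglycerides from it, store them in lipid droplets and secrete adipokines. Fibroblast and preadipocyte genes, among them collagens and their modifying enzymes, are turned down along the way.

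Foxk1 (ENSMUSG00000056493.9, chromosome 5, 142401497 to 142462011, + strand, mm10) checks the label. It stood at 8.798, 8.18 and 7.98 RPKM in the controls and 3.35, 2.95 and 3.46 RPKM in the knockdown. Every knockdown library was below every control library, and the knockdown mean was 39.1% of the control mean (log2 fold change -1.23 ± 0.055, adjusted p = 3.24e-10). Fold changes here and below are on the log2(RPKM + 0.5) scale, which understates the change of genes near 0.5 RPKM, and ± is the standard error of the model. The p-values come from limma over all 20 libraries with Benjamini-Hochberg adjustment over the 14504 genes. Whether the replicates came from separate cultures is not stated in the labels, so their spread may be technical. Each p-value reflects only the spread within the 8 groups, pooled for each gene. Median standard deviations (log2) were 0.073 for Foxk1 knockdown and 0.077 for its control, but 0.047 for Foxk2 knockdown and 0.037 for its control. With overexpression and its control they were 0.073 and 0.080 for Foxk1, 0.050 and 0.051 for Foxk2. Pooling may therefore understate the spread of the 6 libraries compared. Fitted alone, with fewer residual degrees of freedom, these gave 4576 changed genes and adjusted p = 4.49e-05 for Foxk1. Foxk2 (ENSMUSG00000039275.9, chromosome 11, 121259990 to 121309896, + strand, mm10) read 10.9, 10.8 and 11.3 RPKM in the controls and 8.9002, 9.58 and 10.2 RPKM in the knockdown, and it fell by less (-0.19 ± 0.041, adjusted p = 0.00144). Among the other forkhead factors, Foxo1 fell from 5.63 to 4.82 RPKM (-0.21) and Foxo3 rose from 7.39 to 8.903 RPKM (0.26). Of 12 tested partners of the Sin3 complex and its neighbours, 10 did not pass, while Bap1, a deubiquitinase, fell (-0.17) and Hcfc1, a host cell factor that BAP1 binds, rose (0.13). The Hcfc1 call was lost in 7 of 20 alternative settings, among them without control replicate 2, control replicate 3 or knockdown replicate 3.

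The 6 libraries held 16739844 to 20772924 assigned reads, and mitochondrially encoded genes took 5.48 to 6.05% of them in the controls and 6.24 to 6.61% in the knockdown. The first principal component of the 6 libraries held 52.3% of the variance and put the controls at -21.4 to -20.2 and the knockdown libraries at 19.9 to 22.1. Of the 14504 genes, 5765 changed (39.7%), with 3275 higher (22.6%) and 2490 lower (17.2%) in the knockdown. The 3 values of one group lay wholly above or below the 3 of the other for 47.6% of the genes. Most changes were small: the median size among changed genes was 0.30, and 168 genes rose and 97 fell at least 2-fold. Higher calls were 56.8% of the total, but 48.2% after median-ratio scaling (2798 higher, 3004 lower) and 48.0% after quantile normalization (2870 higher, 3111 lower), so the majority direction rests on the scaling. The median of all genes was 0.03 and moved by at most 0.039 under these scalings, so list medians within that distance of it, which were those of endoplasmic reticulum, insulin and mTOR, autophagy and ribosomal protein genes, are not read as apart from all genes. Counts of members below are read against the 22.6% higher and 17.2% lower of all genes. Those shares change with the level of the genes. Of genes with a mean under 1 RPKM 23.9% changed, and of those at 100 RPKM or more 60.3%. Falls were the majority of changes from 20 RPKM upward. The lists were not matched for level, so for lists of abundant genes the 17.2% is a low reference.

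Markers of several cell types were measured in the same libraries. The summed level of 10 adipocyte markers was 11275 to 11642 RPKM in the controls and 9952 to 10470 RPKM in the knockdown, where 6 fell and 4 (Adipoq, Fabp4, Pnpla2, Cfd) did not pass. The sum of 9 fibroblast and preadipocyte markers was 944 to 1051 RPKM in the controls and 1517 to 1609 RPKM in the knockdown. All 8 that were tested rose, and Cd34 stayed under 0.20 RPKM in every library. Ptprc and Tyrobp, which mark leukocytes, were listed at 0 in all 6 libraries, as were Myod1, Myog and Myh3, which mark muscle. The 6 macrophage markers summed to 2.28 to 2.54 RPKM in the controls and 2.23 to 2.30 RPKM in the knockdown. A longer list of 12 macrophage markers that holds these 6 summed to 4.86 to 5.93 RPKM in the controls and 7.59 to 8.57 RPKM in the knockdown. Of its 4 tested members Cd14, a coreceptor for bacterial lipopolysaccharide, rose (from 2.13 to 4.78 RPKM, 1.02) and 3 did not pass. None of the 5 endothelial markers reached 0.5 RPKM. In bulk RNA, fewer cells of a type and less RNA per cell cannot be told apart. The part of the adipocyte and fibroblast marker levels in the results below was not tested.

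The largest falls and rises were ranked among changed protein-coding genes, predicted ones aside, whose higher group averaged at least 2 RPKM and whose groups did not overlap. The largest fall was that of Apoa4, an apolipoprotein. It read 7.29, 7.35 and 7.23 RPKM in the controls and 0.278, 0.2304 and 0.516 RPKM in the knockdown, 21.4-fold less on average (-3.23 ± 0.13, adjusted p = 1.74e-10). All 3 knockdown libraries were far below the controls. Antisense transcripts overlap 69.97% of its transcript, and because the strand of the reads is not given in the sources used here, its reads cannot be told apart from theirs. Egln3, an oxygen-sensing prolyl hydroxylase, Ak4, a mitochondrial adenylate kinase, and Ero1l, an oxidase of the endoplasmic reticulum, followed and are described below. Cyp2ab1, a cytochrome P450, was at 3.28, 4.01 and 3.03 RPKM in the controls and 0.0987, 0.175 and 0.114 RPKM in the knockdown. Ffar4, a receptor for long-chain fatty acids, was at 3.801, 3.83 and 3.52 RPKM in the controls and 0.797, 0.772 and 0.294 RPKM in the knockdown. Acox2, a peroxisomal oxidase of branched acids, was at 5.28, 4.87 and 5.59 RPKM in the controls and 1.15, 1.05 and 1.33 RPKM in the knockdown. The log2 fold changes of these 3 were -2.64, -1.95 and -1.78. Rasd1, a small GTPase induced by dexamethasone, fell from 7.22 to 1.79 RPKM (-1.75), and Angptl8, an insulin-responsive inhibitor of lipoprotein lipase, fell from 7.203 to 1.96 RPKM (-1.67).

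Within the same limits the largest rise was that of Grem1, a secreted antagonist of bone morphogenetic proteins (BMPs). Its levels were 1.07, 0.977 and 0.966 RPKM in the controls and 6.04, 5.905 and 6.94 RPKM in the knockdown. The log2 fold change was 2.17 ± 0.092 (adjusted p = 2.22e-10). Thbs1 codes for thrombospondin 1, a matrix protein that activates TGF-beta, and read 38.9, 38.7 and 33.4 RPKM in the controls and 136, 136 and 142 RPKM in the knockdown (1.89 ± 0.078, adjusted p = 1.74e-10). Rgs16, a regulator of G-protein signalling, rose from 0.92000 to 4.46 RPKM (1.81). Orm2, an acute-phase orosomucoid, rose from 55.7 to 176 RPKM (1.65), and Aebp1, a secreted collagen-binding protein known to restrain adipogenesis, rose from 5.83 to 17.3 RPKM (1.49). The remaining rises of this rank, Ccl8, Mmp3, Il2ra, Plat, Bst2, Col12a1 and Cxcl5, belong to the matrix, chemokine and interferon groups below. By absolute difference in RPKM the 10 leading genes were 5 mRNAs of the mitochondrial genome, all higher in the knockdown, and 5 nuclear genes. Among the nuclear genes Scd1, a fatty acid desaturase, read 6233, 6428 and 6332 RPKM in the controls and 3409, 3730.1 and 3577 RPKM in the knockdown, and Cidec, a droplet fusion protein, read 2636, 2559 and 2478 RPKM in the controls and 1568, 1680.2 and 1584 RPKM in the knockdown. Ptn, which codes for the secreted growth factor pleiotrophin, was the nuclear gene of largest absolute rise, from 558 to 1338 RPKM (1.26).

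**Figure D1:**
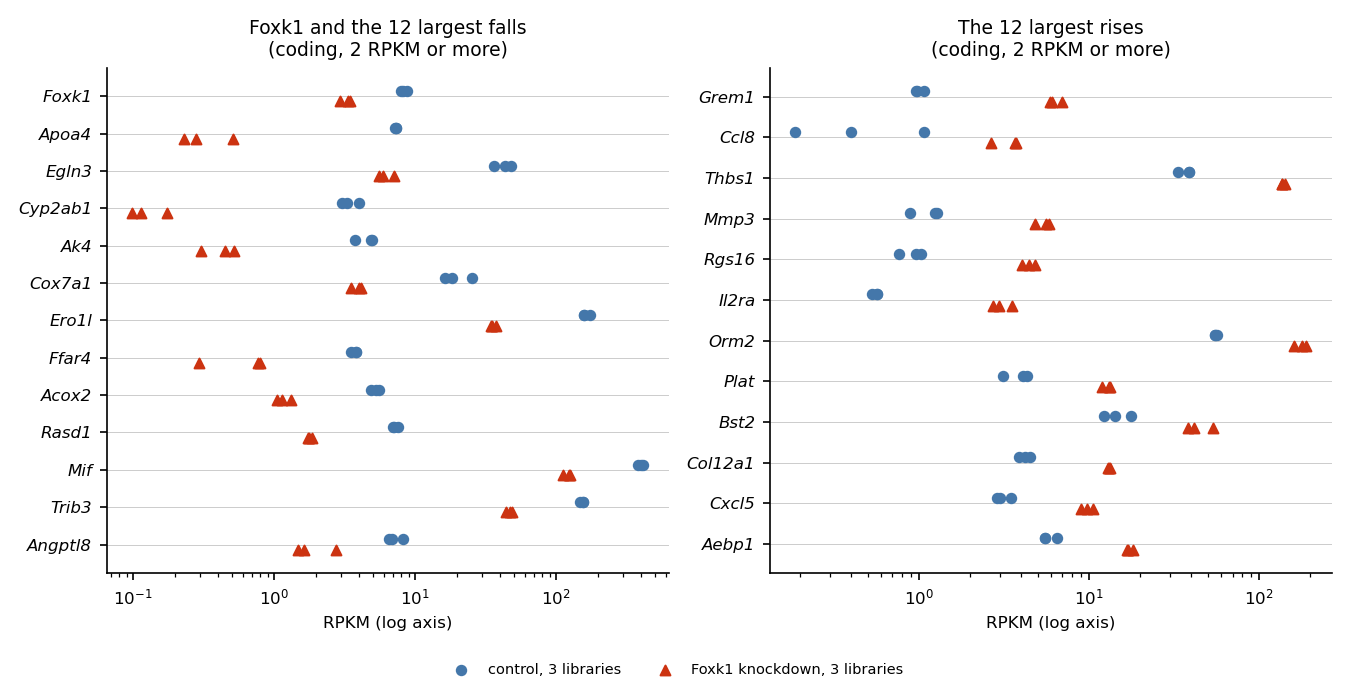
RPKM on a log axis for Foxk1, the 12 largest falls (left) and the 12 largest rises (right) among changed protein-coding genes whose higher group averaged at least 2 RPKM and whose groups did not overlap, 1 symbol per library, with circles for the 3 controls and triangles for the 3 Foxk1 knockdown libraries. In every row the triangles lie wholly to one side of the circles, as the choice of these genes required, and Ccl8 has the widest spread among controls.

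Gene lists that fit fat cells and this factor were described by how many tested members rose, fell or did not pass, beside the 22.6% and 17.2% of all genes. Lists of glycolysis, the response to low oxygen, cholesterol and fatty acid synthesis and the ATF4 response held mostly members that fell. Lists of fibroblast markers, matrix, BMP and Wnt signalling and chemokines held mostly members that rose. Autophagy, ribosomal protein and cell cycle lists held mostly members that did not pass.

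**Figure D2:**
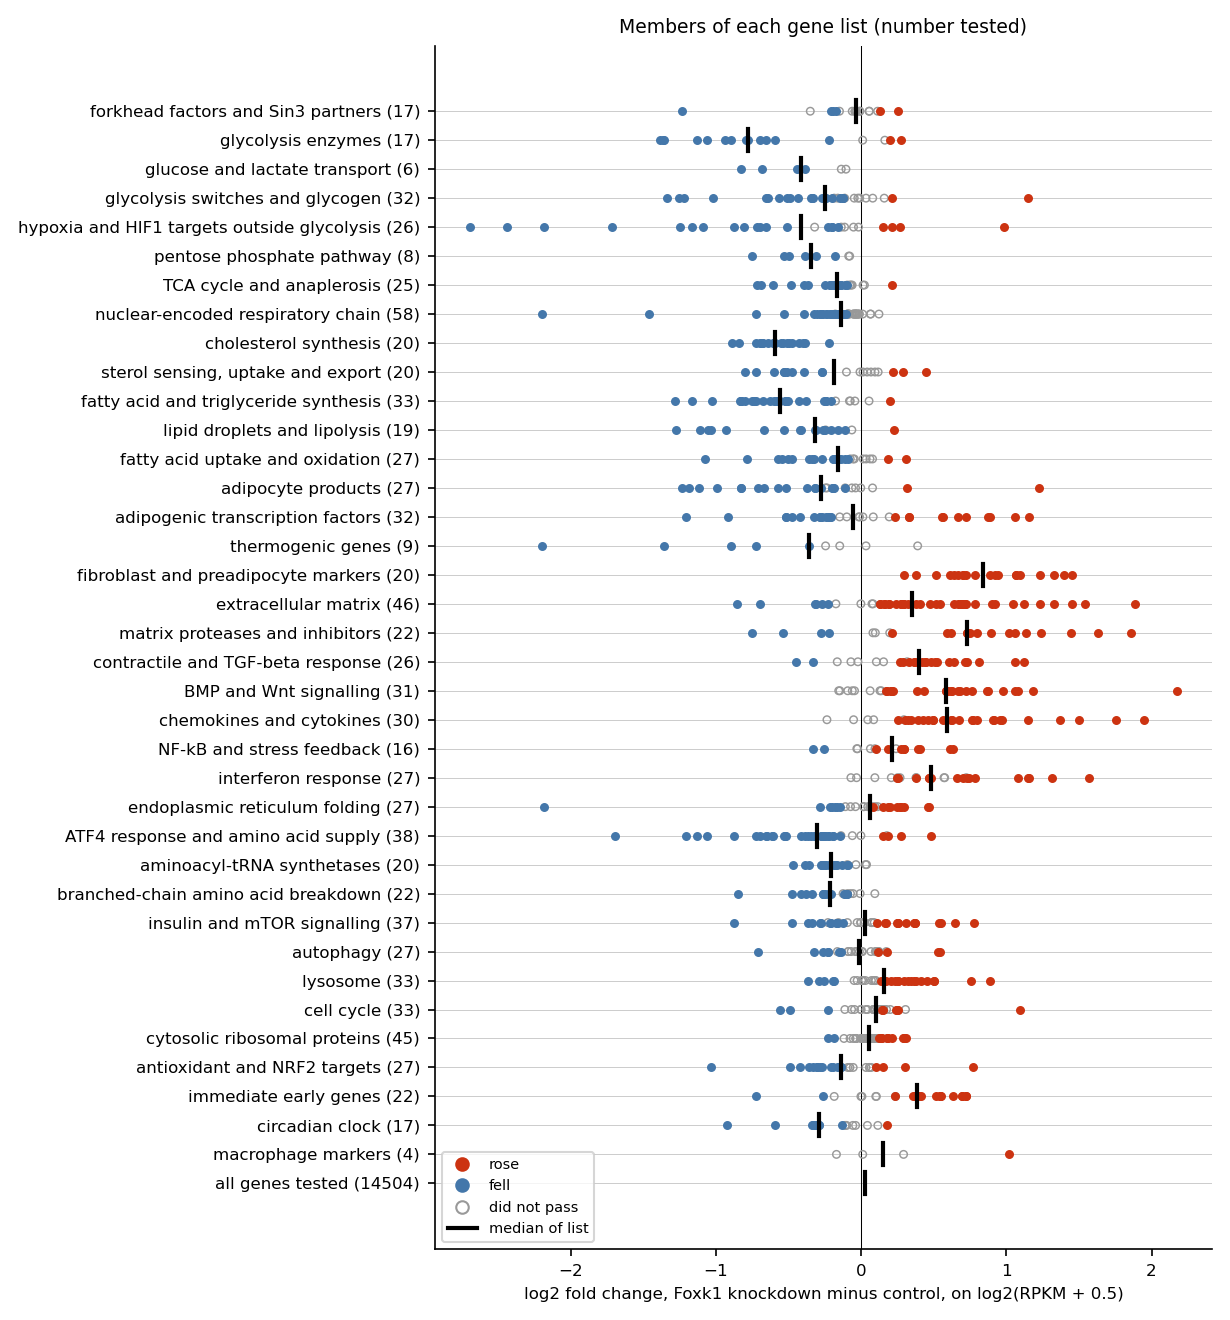
Log2 fold change of each tested member (Foxk1 knockdown minus control, on the log2(RPKM + 0.5) scale) in every list with more than 2 tested members. Red points rose, blue points fell, open points did not pass, and the black bar is the list's median, which was -0.78 for glycolysis enzymes, 0.84 for fibroblast and preadipocyte markers and 0.03 for all genes tested.

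Genes of oxygen sensing and targets of hypoxia-inducible factor 1 (HIF1) outside glycolysis were tested for 26 members: 17 fell, 4 rose and 5 did not pass (median -0.41). The cells' prolyl hydroxylases mark HIF1 alpha for destruction when oxygen is present, and some of them are themselves HIF1 targets. Egln3, coding for prolyl hydroxylase PHD3, stood at 43.3, 47.9 and 36.6 RPKM in the controls and 5.52, 7.07 and 5.89 RPKM in the knockdown (-2.69 ± 0.12, adjusted p = 2.95e-10). Ak4 stood at 4.84, 4.92 and 3.75 RPKM in the controls and 0.304, 0.45003 and 0.516 RPKM in the knockdown (-2.44 ± 0.13, adjusted p = 1.27e-09). Ero1l stood at 157, 174 and 158 RPKM in the controls and 34.97, 37.4 and 34.5 RPKM in the knockdown (-2.18 ± 0.11, adjusted p = 6.30e-10). For these 3 genes the lowest control was more than 4 times the highest knockdown library. Mif, a secreted cytokine with tautomerase activity, fell from 398 to 121 RPKM (-1.71), though near-identical copies cover 63.000% of its transcript and could share its reads. Bnip3, a receptor for mitophagy, fell from 178 to 83.4 RPKM (-1.09), and Fam162a, a mitochondrial protein linked to HIF1-driven cell death, fell from 145 to 64.05 RPKM (-1.17). Ddit4, an inhibitor of mTOR complex 1, fell from 24.6 to 13.2 RPKM (-0.87). The collagen prolyl hydroxylases P4ha1 (from 34.6 to 21.2 RPKM, -0.70) and P4ha2 (from 6.35 to 5.34 RPKM, -0.23) fell as well.

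The 4 members that rose do not share one role. Adm, a vasodilator peptide, read 8.44, 8.65 and 8.48 RPKM in the controls and 18.3, 16.9 and 16.8 RPKM in the knockdown (0.98 ± 0.078, adjusted p = 9.20e-08), with no overlap, a change opposite to that of the targets above. Ndrg1, a stress-response gene, rose from 1.41 to 1.81 RPKM (0.27). Hif1a itself, the oxygen-labile subunit, rose slightly from 18.5 to 20.6 RPKM (0.15 ± 0.052, adjusted p = 0.0298), a call lost in 6 of 20 alternative settings including those without control replicate 1 or any 1 knockdown library, and its partner Arnt rose from 10.1 to 11.8 RPKM (0.21). The members that did not pass were Egln2, Vhl, Bnip3l, Cox4i2 and Slc2a1, the last of which codes for the basal glucose carrier GLUT1 (19.9 and 17.99 RPKM, -0.14).

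HIF1 binds the core letters ACGTG, or CACGT read on the other strand. These letters were searched on both strands in the 250 bases before each RefSeq start (assembly GRCm38.p6, which mm10 corresponds to), counting a site where the 2 forms overlap as CACGTG once per form. Windows of some of the named members that fell are shown, chosen from those that hold the letters. Capitals mark the letters searched, and each window is 5′ to 3′ on the strand of its gene, in flanking sequence that overlaps no exon of GENCODE M21.
Egln3 (chr12:54204074-54204124, - strand): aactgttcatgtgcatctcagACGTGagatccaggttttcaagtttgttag
Ero1l (chr14:45318606-45318660, - strand): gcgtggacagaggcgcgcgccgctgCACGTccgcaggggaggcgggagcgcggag
Bnip3 (chr7:138909584-138909639, - strand): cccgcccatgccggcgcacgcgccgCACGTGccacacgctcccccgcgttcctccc
Fam162a (chr16:36071613-36071667, - strand): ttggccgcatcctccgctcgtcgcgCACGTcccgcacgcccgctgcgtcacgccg
Ddit4 (chr10:59951928-59951982, - strand): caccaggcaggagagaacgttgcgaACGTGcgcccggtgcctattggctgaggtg
P4ha1 (chr10:59323255-59323295, + strand): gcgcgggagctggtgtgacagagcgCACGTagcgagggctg
P4ha2 (chr11:54100821-54100875, + strand): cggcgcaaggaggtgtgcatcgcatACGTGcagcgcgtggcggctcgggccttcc
Hk2 (chr6:82774477-82774704, - strand): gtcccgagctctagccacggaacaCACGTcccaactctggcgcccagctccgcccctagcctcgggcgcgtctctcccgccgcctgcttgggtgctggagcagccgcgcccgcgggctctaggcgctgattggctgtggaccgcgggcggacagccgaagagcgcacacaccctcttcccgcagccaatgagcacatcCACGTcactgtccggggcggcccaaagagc
Ldha (chr7:46845634-46845799, + strand): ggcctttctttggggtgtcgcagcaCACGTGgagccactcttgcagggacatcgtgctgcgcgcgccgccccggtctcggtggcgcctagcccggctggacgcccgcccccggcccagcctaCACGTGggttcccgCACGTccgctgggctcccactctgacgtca
Counted from the start of the gene, the first matched base lay at -229 in Egln3, -63 in Ero1l, -81 in Fam162a, -187 in Ddit4, -16 in P4ha1 and -78 in P4ha2. The letters were not found in the windows of Mif, Pfkl, Tpi1 or Gapdh. Bnip3 held the overlapping form CACGTG from -108, Hk2 held CACGT at -226 and -52, and Ldha held CACGTG from -145 and from -48 and CACGT at -34. The letters stood in 13 of the 16 hypoxia list members that fell and have an entry (81.3%), in 1 of 3 that rose and in 2 of 3 that did not pass. They stood in 7 of 13 glycolysis members that fell (53.8%) and in none of the 2 that rose or the 2 that did not pass. Of all RefSeq starts 16.6% held them, as did 25.5% of 8973 protein-coding genes tested that have an entry (2289), and 3 of 15 cholesterol synthesis genes that fell. These counts take any RefSeq start of a gene. The windows with matches in Ak4, Ankrd37, Egln1, Hilpda and Vegfa overlap exons of GENCODE M21. So do those of Pkm, a glycolysis member, and Dhcr7, a cholesterol synthesis member. In Mxi1 the window of the match at -25 overlaps an exon and that of the match at -66 does not. Members of the hypoxia list were chosen as oxygen-sensing genes and HIF1 targets, so its share does not bear on the direction of change. A match describes these letters and no binding was measured.

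Glycolysis turns glucose into pyruvate and lactate, and 13 of its 17 tested enzymes fell, 2 rose and 2 (Eno2, Eno3) did not pass (median -0.78). Glucose metabolism is the subject of the study these libraries were made for, so the count is not independent evidence of a direction. Hk2, the hexokinase that responds to insulin, stood at 27.5, 27.6 and 24.8 RPKM in the controls and 14.99, 15.6 and 15.2 RPKM in the knockdown (-0.78 ± 0.053, adjusted p = 2.01e-08). Pfkl, the liver form of phosphofructokinase at the committed step, stood at 73.5, 72.1 and 61.7 RPKM in the controls and 26.3, 25.6 and 26.5 RPKM in the knockdown (-1.38 ± 0.081, adjusted p = 4.01e-09). The groups lay far apart for both genes. Aldoa, the aldolase that splits fructose bisphosphate, fell from 572 to 274 RPKM (-1.06), Tpi1, which interconverts its products, fell from 309 to 161 RPKM (-0.94), and Gapdh, which oxidizes them, fell from 18.3 to 8.08 RPKM (-1.13). Copies elsewhere in the genome cover 35.5% of Gapdh, so its level is uncertain.

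At the last step, Ldha, the lactate dehydrogenase subunit that favours lactate, read 224, 238 and 209 RPKM in the controls and 83.3, 88.8 and 88.6 RPKM in the knockdown (-1.36 ± 0.081, adjusted p = 4.96e-09), while Ldhb, the subunit that favours pyruvate, rose from 68.8 to 83.2 RPKM (0.27 ± 0.056, adjusted p = 0.00106). Their mean levels per length were 224 and 86.9 RPKM for Ldha and 68.8 and 83.2 RPKM for Ldhb in control and knockdown, so the excess of Ldha in the controls had nearly gone in the knockdown. The other rise was Hk1, the housekeeping hexokinase (from 5.12 to 5.94 RPKM, 0.20), whose call was lost in 12 of 20 alternative settings, among them without control replicate 2 or 3 and without knockdown replicate 1 or 2. Of 6 carriers of glucose and lactate 4 fell and none rose, with a median of -0.41. They were Slc2a4, which codes for the insulin-responsive GLUT4 (49.98, 51.3 and 48.9 RPKM in the controls and 26.4, 28.96 and 28.6 RPKM in the knockdown, -0.83 ± 0.059, adjusted p = 2.93e-08), the lactate carriers Slc16a1 (from 8.37 to 6.29 RPKM) and Slc16a3 (from 0.534 to 0.263 RPKM), and Bsg, the chaperone that brings lactate carriers to the membrane (from 465 to 289 RPKM, -0.68). The control mean of Slc16a3 was close to the 0.5 RPKM needed for testing and its knockdown mean was below it, so the filter may have favoured its fall. Slc2a1 and Slc2a8 did not pass.

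**Figure D3:**
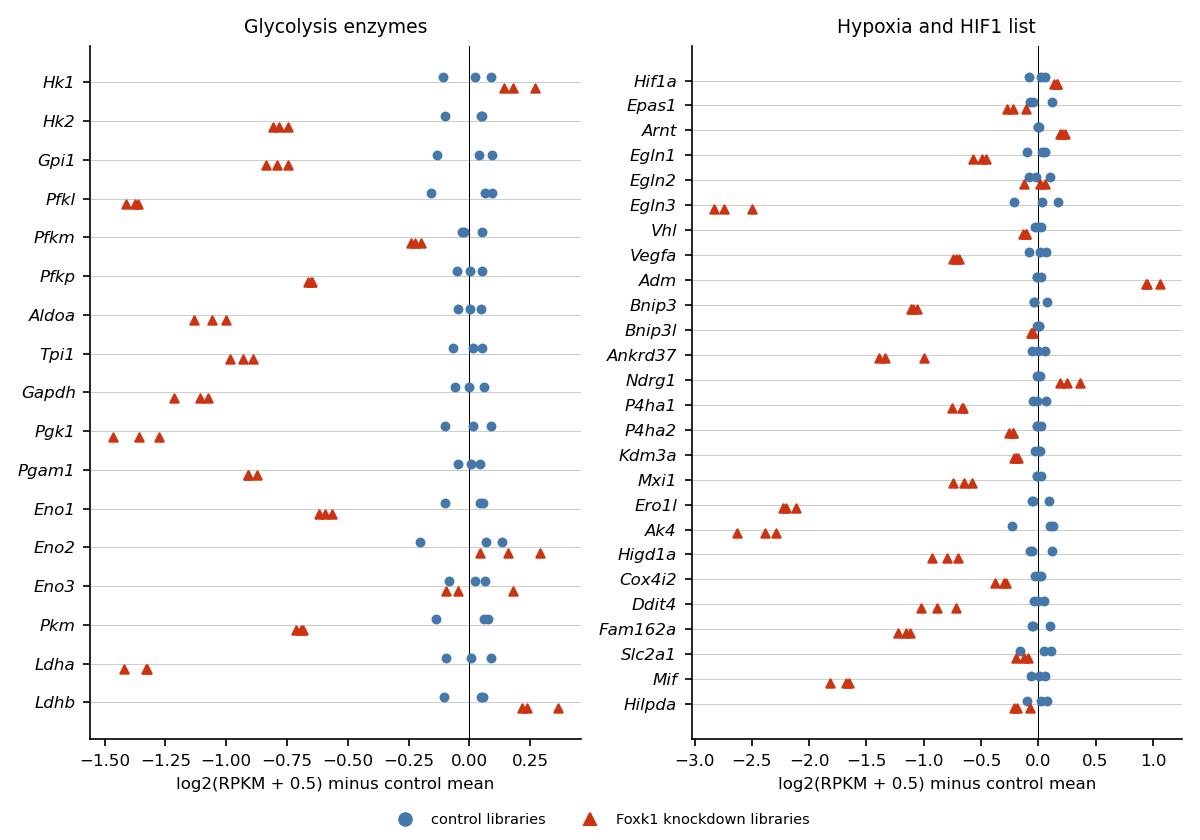
Level of each tested glycolysis enzyme (left) and hypoxia or HIF1 list member (right) in each of the 6 libraries, as log2(RPKM + 0.5) minus the mean of the 3 controls, with circles for controls and triangles for the Foxk1 knockdown. Triangles lie left of the circles for 13 of 17 glycolysis enzymes and right of them for Hk1 and Ldhb. Of all 14504 genes tested, the knockdown lay wholly below the controls for 2939 and wholly above them for 3964. Egln3, Ak4 and Ero1l reach the lowest values on the right and Adm the highest.

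Among the enzymes that steer pyruvate and store glucose, 21 of 32 tested switches and glycogen genes fell, 2 rose and 9 did not pass (median -0.25). Pyruvate dehydrogenase kinases turn off the conversion of pyruvate to acetyl-CoA in mitochondria and the phosphatases turn it on. Pdk1, a kinase, read 17.6, 18.6 and 16.4 RPKM in the controls and 6.87, 6.73 and 6.32 RPKM in the knockdown (-1.33 ± 0.062, adjusted p = 4.39e-10), without overlap. Pdp1, a phosphatase, read 6.49, 6.64 and 6.72 RPKM in the controls and 16.04, 15.04 and 14.7 RPKM in the knockdown (1.15 ± 0.058, adjusted p = 1.13e-09), also without overlap and in the opposite direction, while the second phosphatase, Pdp2, fell from 11.2 to 6.96 RPKM (-0.64). In glycogen metabolism, Gys1, glycogen synthase, fell from 34.03 to 21.4 RPKM (-0.66), as did Stbd1, a glycogen-binding receptor (from 4.86 to 1.76 RPKM, -1.25), and Ppp1r3b, a subunit that brings phosphatase to glycogen (from 2.53 to 0.805 RPKM, -1.22). Pgm1, which links glucose phosphates, fell from 70.1 to 47.3 RPKM (-0.56), and Pgm2 rose from 5.18 to 6.07 RPKM, a call lost in 9 of 20 settings, including those without knockdown replicate 1, knockdown replicate 3 or control replicate 3.

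Glucose also feeds the pentose phosphate pathway, the source of NADPH for lipid synthesis. Of its 8 enzymes 6 fell and none rose (median -0.35), led by Tkt, transketolase, at 78.5, 75.9 and 77.5 RPKM in the controls and 44.6, 46.1 and 46.8 RPKM in the knockdown (-0.75 ± 0.048, adjusted p = 1.13e-08). Pgd, which yields NADPH, fell from 37.4 to 26.4 RPKM (-0.50), Taldo1, transaldolase, fell from 146 to 101 RPKM (-0.53), and G6pdx, the entry enzyme, fell from 53.6 to 40.99 RPKM (-0.38). In the tricarboxylic acid cycle and its side reactions 18 of 25 fell, 1 rose and 6 did not pass, with a smaller median of -0.17. The largest falls were in the genes that carry carbon out to fat: Slc25a1, the citrate carrier (from 358 to 218 RPKM, -0.72), Acly, which splits citrate to acetyl-CoA (from 157 to 97.1 RPKM, -0.69), and Me1, the malic enzyme that yields NADPH (from 107 to 69.9 RPKM, -0.61). Pcx, pyruvate carboxylase, which refills the cycle, fell from 757 to 542 RPKM (-0.48). The one that rose was Idh2, mitochondrial isocitrate dehydrogenase (from 82.1 to 95.1 RPKM, 0.21).

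Nuclear genes of the respiratory chain fell in 37 of 58 cases and 21 did not pass. None rose, against 1 or 2 in 5 of the 20 alternative settings, 1 of them without knockdown replicate 3. Their median of -0.14 was small, and the 2 largest falls were of muscle and brown fat isoforms of cytochrome c oxidase. Cox7a1 read 16.4, 25.4 and 18.2 RPKM in the controls and 4.15, 4.02 and 3.499 RPKM in the knockdown (-2.20 ± 0.13, adjusted p = 5.53e-09), and Cox6a2 read 12.96, 8.29 and 10.3 RPKM in the controls and 3.56, 3.43 and 3.35 RPKM in the knockdown (-1.46 ± 0.12, adjusted p = 1.03e-07). Cox8b, a further tissue-specific subunit, fell from 104 to 62.7 RPKM (-0.72), and Cycs, cytochrome c, fell from 91.6 to 63.6 RPKM (-0.53). Among 9 tested thermogenic genes 5 fell and 4 did not pass. None rose, against 1 in 4 settings, among them without control replicate 3 and without knockdown replicate 1. Besides Cox7a1 and Cox8b these were Chchd10, a mitochondrial protein (from 5.65 to 1.92 RPKM, -1.36), Kcnk3, a potassium channel (from 11.7 to 6.05 RPKM, -0.90), and Slc25a20, the acylcarnitine carrier (from 6.16 to 4.69 RPKM, -0.36). Ucp1 did not reach the level needed for testing.

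All 20 genes of cholesterol synthesis fell, from acetyl-CoA to the last reductase, with a median of -0.60. In all of them the knockdown lay wholly below the controls, as it did for 2939 of all 14504 genes. Hmgcs1, the synthase that opens the mevalonate pathway, read 180.1, 194 and 189 RPKM in the controls and 122, 133 and 118 RPKM in the knockdown (-0.59 ± 0.050, adjusted p = 2.09e-07). Sqle, squalene epoxidase, read 46.6, 46.6 and 47.2 RPKM in the controls and 28.7, 30.5 and 27.5 RPKM in the knockdown (-0.69 ± 0.054, adjusted p = 8.05e-08). Lss, which closes the sterol rings, read 19.3, 19.2 and 18.9 RPKM in the controls and 9.56, 10.6 and 10.1 RPKM in the knockdown (-0.89 ± 0.060, adjusted p = 1.60e-08). The highest knockdown library was below the lowest control in each of these genes. Pmvk, a mevalonate kinase step, fell from 62.9 to 34.9 RPKM (-0.84), and the later enzymes Msmo1 (from 69.1 to 45.2 RPKM, -0.61) and Sc5d (from 45.4 to 29.7 RPKM, -0.60) fell too.

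Among 20 genes that sense, take up or export sterols, 10 fell, 3 rose and 7 did not pass (median -0.18). Sterol regulatory element-binding proteins (SREBPs) drive the synthesis genes and are held back by INSIG proteins, which are also SREBP targets. Insig1 read 301, 311 and 294 RPKM in the controls and 173, 184 and 162 RPKM in the knockdown (-0.80 ± 0.052, adjusted p = 1.30e-08), with no overlap between the groups. Srebf1, coding for SREBP1, fell from 37.4 to 26.7 RPKM (-0.47). Of 10 tested genes of uptake and export 6 fell, 2 rose and 2 did not pass. The exporters Abca1 (from 45.6 to 34.7 RPKM, -0.39) and Abcg1 (from 8.88 to 6.002 RPKM, -0.53), which liver X receptors turn on, fell, as did Scarb1, a lipoprotein receptor (from 19.4 to 13.5 RPKM, -0.51). The 3 that rose were Mbtps1, the first protease that activates SREBPs (from 38.2 to 46.7 RPKM), Lrp1, an endocytic receptor (from 45.2 to 61.7 RPKM), and Soat1, which esterifies cholesterol (from 2.09 to 2.52 RPKM, call lost in 4 of 20 settings, 1 of them without control replicate 1).

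Fatty acid and triglyceride synthesis held 27 falls among 33 tested genes, with 1 rise, 5 that did not pass and a median of -0.56. Scd1, whose values are given above, changed by -0.83 ± 0.054, adjusted p = 1.28e-08. Thrsp, a regulator of lipogenesis that responds to carbohydrate, read 219.5, 230.2 and 232 RPKM in the controls and 110.3, 120.0 and 104 RPKM in the knockdown (-1.02 ± 0.056, adjusted p = 2.00e-09). Gpd1, which makes the glycerol backbone, read 1188, 1149 and 1109 RPKM in the controls and 616, 661 and 665 RPKM in the knockdown (-0.83 ± 0.049, adjusted p = 4.26e-09). Fads1, a desaturase of long chains, fell from 121 to 80.6 RPKM (-0.59), Lpin1, a phosphatidate phosphatase, fell from 59.2 to 38.8 RPKM (-0.60), and Dgat2, which makes triglyceride, fell from 136 to 80.8 RPKM (-0.75). The rise was Lpin2, a paralogue of Lpin1 (from 2.43 to 2.85 RPKM, 0.20), a call lost in 6 of 20 settings, including those without control replicate 1, control replicate 2 or knockdown replicate 3. Reads of Gpd1 and of the antisense gene Gm16537, which also fell (from 1258 to 717 RPKM), share more than 50% of the Gm16537 exons and cannot be told apart without strand.

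Of 19 droplet and lipolysis genes 16 fell, 1 rose and 2 did not pass (median -0.32). G0s2, the inhibitor of the triglyceride lipase ATGL, read 322, 338 and 321 RPKM in the controls and 126, 143 and 135 RPKM in the knockdown (-1.28 ± 0.073, adjusted p = 3.29e-09). Pde3b, the phosphodiesterase through which insulin lowers cAMP and lipolysis, read 11.8, 11.99 and 11.3 RPKM in the controls and 5.26, 5.32 and 5.48 RPKM in the knockdown (-1.06 ± 0.043, adjusted p = 1.74e-10). Hcar2, a receptor that also slows lipolysis, read 15.6, 15.4 and 14.1 RPKM in the controls and 6.59, 6.59 and 6.88 RPKM in the knockdown (-1.11 ± 0.068, adjusted p = 6.60e-09). All 3 are brakes on lipolysis. Of the 10 tested lipases, brakes and their regulators 8 fell, hormone-sensitive lipase among them (Lipe, named after its values were seen, from 237 to 219.6 RPKM, -0.11), and Adrb3 and Pnpla2, which codes for ATGL itself (589.6 and 564 RPKM in control and knockdown, -0.06), did not pass. The call of Lipe was lost in 6 of 20 settings, among them without control replicate 1, knockdown replicate 1 or knockdown replicate 2. Pnpla3, a lipid hydrolase that SREBP1 controls, fell from 9.53 to 4.41 RPKM (-1.03). Among droplet proteins, Cidec changed by -0.67, Plin2 fell from 95.7 to 65.98 RPKM (-0.53), Bscl2, which codes for seipin, fell from 9.25 to 4.63 RPKM (-0.93), and Plin3 rose from 39.7 to 46.5 RPKM (0.22).

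**Figure D4:**
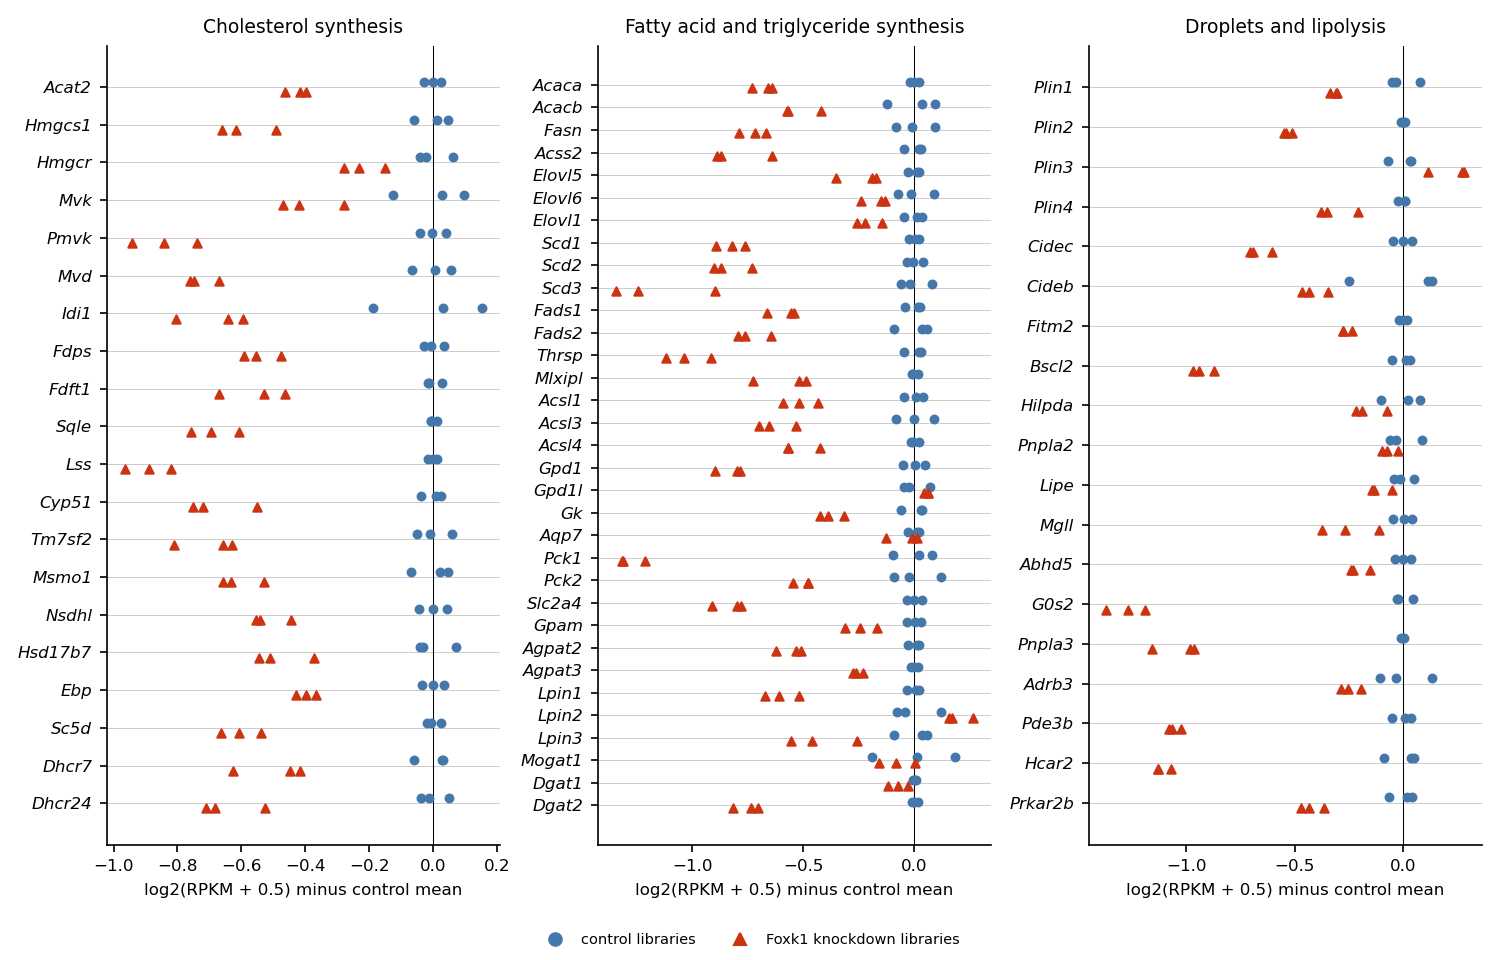
Level of each tested gene of cholesterol synthesis (left), fatty acid and triglyceride synthesis (middle) and droplets and lipolysis (right) in each of the 6 libraries, as log2(RPKM + 0.5) minus the mean of the 3 controls, with circles for controls and triangles for the Foxk1 knockdown. All 20 cholesterol genes have their triangles left of the circles, as would 2939 of all 14504 genes tested. Lpin2 and Plin3 are the genes with triangles to the right that passed the test.

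Uptake and oxidation of fatty acids changed less, with 18 of 27 falling, 2 rising, 7 not passing and a median of -0.16. Lpl, lipoprotein lipase, read 1882, 2015 and 2085 RPKM in the controls and 1279, 1347 and 1398 RPKM in the knockdown (-0.57 ± 0.048, adjusted p = 1.73e-07). Fabp5, a fatty acid binding protein, fell from 197 to 114 RPKM (-0.78), and Ehhadh, a peroxisomal enzyme, fell from 2.41 to 0.884 RPKM (-1.07). In mitochondria Acadm, the medium-chain dehydrogenase, fell from 153 to 108 RPKM (-0.50). The 2 that rose were Cpt1a, the carnitine transferase that admits fatty acids to mitochondria (from 11.02 to 13.8 RPKM, 0.31), and Slc27a1, a fatty acid carrier (from 76.04 to 86.5 RPKM, 0.19, call lost in 7 of 20 settings, including without knockdown replicate 1 or 3 and without control replicate 2 or 3).

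Adipocyte products fell in 18 of 27 cases, with 2 rises, 7 that did not pass and a median of -0.28. Retn, which codes for the adipokine resistin, read 363, 407 and 408 RPKM in the controls and 226, 243 and 252 RPKM in the knockdown (-0.71 ± 0.050, adjusted p = 2.57e-08), Apoc1, an apolipoprotein, fell from 348 to 175 RPKM (-0.99), and Sncg, a synuclein of fat cells, fell from 37.02 to 15.98 RPKM (-1.19). Car3, a carbonic anhydrase abundant in fat, read 55.3, 53.3 and 54.2 RPKM in the controls and 125, 133 and 125 RPKM in the knockdown (1.22 ± 0.095, adjusted p = 7.43e-08), a rise without overlap, and Serpina3n, an acute-phase inhibitor, rose from 10.3 to 13.1 RPKM (0.32). Of 19 factors that drive adipogenesis 12 fell, 2 (Ebf1, Klf5) rose and 5 did not pass (median -0.24). Pparg, the master regulator, read 118, 119 and 122 RPKM in the controls and 100.04, 103 and 103 RPKM in the knockdown (-0.23 ± 0.027, adjusted p = 6.02e-06), a small fall without overlap. Klf15, which supports GLUT4 and lipogenic genes, fell further (from 31.8 to 16.6 RPKM, -0.92), Klf9 fell from 39.7 to 32.6 RPKM (-0.28), and Ppargc1b, a coactivator, fell from 3.55 to 2.53 RPKM (-0.42). Of 13 factors known to restrain adipogenesis 9 rose, 2 fell and 2 (Gata3, Hes1) did not pass (median 0.56). Dlk1, the preadipocyte protein Pref-1, read 128, 112 and 97.4 RPKM in the controls and 217, 207 and 198 RPKM in the knockdown (0.89 ± 0.094, adjusted p = 2.12e-06). Zfp521, a repressor of adipogenic commitment, rose from 3.34 to 8.04 RPKM (1.16), Id2 rose from 1.76 to 4.2005 RPKM (1.06) and Id3 rose from 13.7 to 25.6 RPKM (0.88). The 2 that fell were Foxo1 and the stress factor Ddit3. Ebf1, Klf5, Gata3 and Hes1 were named after their values were seen.

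All 20 tested fibroblast and preadipocyte markers rose, with a median of 0.84. In all of them the knockdown lay wholly above the controls, as it did for 3964 of all 14504 genes. Pdgfra, the receptor that marks fat progenitors, read 27.8, 27.8 and 26.7 RPKM in the controls and 60.7, 58.5 and 58.3 RPKM in the knockdown (1.10 ± 0.055, adjusted p = 1.04e-09). Dcn, coding for the proteoglycan decorin, read 223, 229 and 239 RPKM in the controls and 635, 636 and 621 RPKM in the knockdown (1.45 ± 0.071, adjusted p = 7.27e-10). Postn, coding for the matrix protein periostin, read 57.6, 62.3 and 60.97 RPKM in the controls and 148, 142 and 136 RPKM in the knockdown (1.23 ± 0.055, adjusted p = 3.31e-10). Knockdown values of these genes were more than 2 times the controls, while levels stayed close within each group. Ogn, a small proteoglycan, rose from 43.1 to 109 RPKM (1.33), Clec3b, which codes for tetranectin, rose from 31.8 to 84.6 RPKM (1.40), and Dpt, dermatopontin, rose from 50.8 to 98.1 RPKM (0.94).

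In the extracellular matrix list 36 of 46 rose, 6 fell and 4 did not pass (median 0.35). Glycoproteins and proteoglycans rose in 21 of 22 cases. Among collagens 10 of 14 rose. Col12a1, a fibril-associated collagen, read 4.201, 4.51 and 3.87 RPKM in the controls and 13.2, 12.9 and 13.3 RPKM in the knockdown (1.54 ± 0.072, adjusted p = 4.39e-10), whereas the basement membrane collagens Col15a1 (from 34.6 to 18.9 RPKM, -0.86) and Col18a1 (from 19.6 to 15.6 RPKM, -0.32) fell. Crosslinking and modifying enzymes were divided, with 5 rises and 4 falls among 10. Lox, lysyl oxidase, rose from 112 to 244 RPKM (1.12 ± 0.047, adjusted p = 1.96e-10), and the 4 that fell were the hydroxylases P4ha1, P4ha2, Plod1 (from 36.1 to 28.9 RPKM) and Plod3 (from 66.8 to 55.3 RPKM), of which the first 2 are also members of the hypoxia list above. The summed fibroblast and preadipocyte markers given above, of which Col1a1, Col3a1 and Postn are also matrix list members, were higher in the same libraries.

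Matrix proteases and their inhibitors rose in 15 of 22 cases, fell in 4 and did not pass in 3 (median 0.73). Mmp3, stromelysin, read 0.884, 1.28 and 1.254 RPKM in the controls and 5.84, 5.58 and 4.85 RPKM in the knockdown (1.86 ± 0.14, adjusted p = 3.98e-08). Mmp2, a gelatinase, read 135, 131 and 122 RPKM in the controls and 302, 279 and 276 RPKM in the knockdown (1.138 ± 0.053, adjusted p = 4.39e-10), and Mmp14, its membrane activator, read 86.9, 78.8 and 75.1 RPKM in the controls and 168, 153 and 168 RPKM in the knockdown (1.02 ± 0.072, adjusted p = 2.85e-08). Groups did not overlap in any of the 3, which for Mmp3 the ranking of largest rises had required. Timp2, which takes part in that activation, rose from 68.96 to 188 RPKM (1.44), and Plat, tissue plasminogen activator, rose from 3.83 to 12.8 RPKM (1.63). Adamts2, which trims procollagen, rose from 5.35 to 9.19 RPKM (0.73). Among those that fell were Mmp11 (from 61.5 to 36.6 RPKM, -0.75), Adamts9 (from 3.7003 to 3.11 RPKM) and Timp4 (from 3.93 to 2.56 RPKM).

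Contractile and TGF-beta genes rose in 18 of 26 cases and fell in 2 (median 0.40). Tgfb3 read 4.27, 4.11 and 3.67 RPKM in the controls and 9.47, 9.48 and 9.02 RPKM in the knockdown (1.12 ± 0.063, adjusted p = 2.52e-09), while Tgfb1 fell from 8.26 to 5.904 RPKM (-0.45), and Skil, a repressor of TGF-beta signalling, fell from 2.12 to 1.58 RPKM (-0.33). Ltbp1, which stores latent TGF-beta in the matrix, rose from 5.29 to 11.6 RPKM (1.06), and Tgfbr3, a coreceptor, rose from 24.6 to 34.6 RPKM (0.48). Among contractile genes Cnn2, a calponin, rose from 53.3 to 93.6 RPKM (0.81), Cald1, caldesmon, rose from 25.2 to 41.7 RPKM (0.72) and Tpm1, a tropomyosin, rose from 20.1 to 33.7 RPKM (0.73).

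BMP and Wnt signalling genes rose in 23 of 31 cases (median 0.59). None fell, against 2 after removal of a length and GC trend and 1 after quantile normalization or without knockdown replicate 3. BMP and activin antagonists were among the leading members: besides Grem1, Fst, which codes for follistatin, read 13.99, 13.6 and 11.7 RPKM in the controls and 28.8, 29.4 and 26.5 RPKM in the knockdown (1.08 ± 0.060, adjusted p = 2.54e-09), and Chrdl1 rose from 19.2 to 29.1 RPKM (0.59). Id2 and Id3, which BMP signalling is known to induce, rose as given above. Of 17 tested Wnt genes 13 rose.

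Chemokines, cytokines and their receptors rose in 25 of 30 tested cases (median 0.59), and 19 of the 49 listed did not reach the level for testing. None fell, against 1 after quantile normalization. Ccl2, which attracts monocytes, read 9.56, 11.7 and 10.5 RPKM in the controls and 27.4, 26.98 and 29.8 RPKM in the knockdown (1.37 ± 0.095, adjusted p = 2.44e-08). Ccl8, a related chemokine, read 0.188, 0.401 and 1.08 RPKM in the controls and 2.67, 3.74 and 3.66 RPKM in the knockdown. This was a rise at low levels (1.95 ± 0.27, adjusted p = 2.94e-05). Among its controls only replicate 3 reached the 0.5 RPKM needed for testing, so the filter favoured its rise. Cxcl5, which attracts neutrophils, read 2.997, 3.496 and 2.904 RPKM in the controls and 9.78, 10.5 and 8.95 RPKM in the knockdown (1.497 ± 0.10, adjusted p = 1.94e-08). Cxcl12 rose from 44.6 to 87.2 RPKM (0.96), and Csf1, the growth factor of macrophages, rose from 11.4 to 19.7 RPKM (0.76). Il2ra, the alpha chain of the interleukin 2 receptor, read 0.531, 0.566 and 0.5701 RPKM in the controls and 2.75, 2.96 and 3.54 RPKM in the knockdown (1.76 ± 0.092, adjusted p = 1.45e-09), although Ptprc, which marks lymphocytes as well, was listed at 0 in every library. The summed level of the longer macrophage list given above was higher in the same libraries, but Cd14 was the only tested member that rose. The 6 markers of the shorter list did not sum higher (2.28 to 2.54 RPKM in the controls, 2.23 to 2.30 RPKM in the knockdown). Il1r1, the interleukin 1 receptor, rose from 8.88 to 12.7 RPKM (0.49). Of 16 genes of NF-kB and its feedback 9 rose, 2 fell and 5 did not pass (median 0.21), with Nfkb1 rising from 4.31 to 5.86 RPKM (0.40), Vcam1, an adhesion molecule, rising from 9.24 to 14.4 RPKM (0.62), and Nfkbib (from 8.16 to 6.76 RPKM) and Sod2 (from 55.3 to 43.9 RPKM) falling.

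Interferon response genes rose in 16 of 27 cases and fell in none (median 0.48). Bst2, tetherin, which holds back budding virus, read 17.8, 12.3 and 14.2 RPKM in the controls and 53.98, 38.5 and 41.7 RPKM in the knockdown (1.57 ± 0.24, adjusted p = 9.82e-05), and Oasl2, an antiviral synthetase relative, read 0.483, 0.201 and 0.134 RPKM in the controls and 1.37, 1.24 and 0.964 RPKM in the knockdown (1.15 ± 0.23, adjusted p = 0.00100). Oasl2 reached the 0.5 RPKM needed for testing only in the knockdown libraries, so the filter favoured its rise. Gbp2, a guanylate-binding protein, rose from 9.54 to 13.5 RPKM (0.48), and Irf1, a transcription factor of the response, rose from 14.7 to 17.6 RPKM (0.26). The list's summed level was 116, 85.7 and 88.4 RPKM in the controls and 176, 155 and 151 RPKM in the knockdown, and control replicate 1 stood apart in it. Without control replicate 1 the count that rose was 19, without control replicate 2 it was 11, and it was 10 without control replicate 3 or without knockdown replicate 1.

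Genes of the ATF4 response and amino acid supply fell in 30 of 38 cases, with 4 rises, 4 that did not pass and a median of -0.30. ATF4 is the factor through which cells answer amino acid shortage and stress of the endoplasmic reticulum. All 12 tested regulators of the response fell (median -0.71). Trib3, a pseudokinase that it induces, read 154, 147 and 154 RPKM in the controls and 47.1, 43.97 and 48.7 RPKM in the knockdown (-1.70 ± 0.059, adjusted p = 6.66e-11). Ddit3, coding for CHOP, read 136, 127 and 128 RPKM in the controls and 63.8, 53.5 and 52.1 RPKM in the knockdown (-1.21 ± 0.065, adjusted p = 1.88e-09). Nupr1, a stress-induced nuclear protein, read 80.3, 89.1 and 89.5 RPKM in the controls and 40.9, 42.3 and 39.7 RPKM in the knockdown (-1.06 ± 0.047, adjusted p = 2.95e-10). The groups were apart in all 3, which for Trib3 the ranking of largest falls had required. The knockdown was at less than 50% of the control mean. Chac1, which breaks down glutathione, fell from 29.3 to 13.1 RPKM (-1.13), Psat1 of serine synthesis fell from 81.03 to 51.5 RPKM (-0.65), and Mthfd2 of mitochondrial folate metabolism fell from 34.4 to 23.7 RPKM (-0.53). Among the rises were Got2, a mitochondrial transaminase (from 36.8 to 51.4 RPKM), and the carriers Slc38a2 (from 45.5 to 50.6 RPKM) and Slc36a4 (from 4.27 to 4.93 RPKM). The call of Slc36a4 was lost in 12 of 20 settings, including without control replicate 1, control replicate 2, knockdown replicate 1 or knockdown replicate 3. That of Slc38a2 was lost without control replicate 1, which left 2 rises, and copies cover 51.1% of Got2.

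Cytosolic aminoacyl-tRNA synthetases, which charge tRNAs and include ATF4 targets, fell in 16 of 20 cases and rose in none (median -0.20), for instance Eprs (from 22.7 to 16.3 RPKM, -0.47), Mars (from 25.4 to 19.3 RPKM, -0.39) and Sars (from 42.3 to 32.8 RPKM, -0.36). Breakdown of branched-chain amino acids, a source of acetyl-CoA in fat cells, fell in 16 of 22 cases and rose in none (median -0.22). Its leading member was Dbt, a subunit of the branched-chain dehydrogenase, at 37.9, 42.3 and 43.5 RPKM in the controls and 22.9, 23.7 and 21.5 RPKM in the knockdown (-0.85 ± 0.052, adjusted p = 7.17e-09), and Bcat2, the mitochondrial transaminase, fell from 155 to 116 RPKM (-0.41). Chaperones of the endoplasmic reticulum did not share a direction: 10 of 27 rose, 7 fell and 10 did not pass (median 0.06). Calr, calreticulin, rose from 286 to 396 RPKM (0.47) and Pdia3, a disulfide isomerase, rose from 123 to 169 RPKM (0.46), while Hspa5, the main chaperone, fell from 182 to 163 RPKM (-0.16), as did Ero1l and Xbp1 (from 47.7 to 42.03 RPKM, -0.18).

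Insulin and mTOR signalling genes were divided, with 14 of 37 rising, 11 falling and 12 not passing. Their median of 0.02 fell below 0 with median-ratio scaling (-0.01) and after removal of a length and GC trend (-0.02). Akt2, the kinase that moves GLUT4 to the membrane, fell from 48.4 to 34.7 RPKM (-0.47 ± 0.056, adjusted p = 6.32e-06), Irs1, the adaptor of the insulin receptor, rose from 24.3 to 30.3 RPKM (0.31), and Igfbp3 rose from 10.7 to 18.7 RPKM (0.78). Sesn3, a sestrin that FOXO factors induce, rose from 17.7 to 26.2 RPKM (0.55). Autophagy genes, on which FOXK factors are known to act in muscle, rose in 4 of 27 cases, fell in 7 and did not pass in 16, with a median of -0.01. Atg101, a subunit of the ULK complex, had the largest fall (from 73.7 to 44.8 RPKM, -0.71), Sqstm1, a cargo receptor, fell from 209 to 167 RPKM (-0.32), and the 4 that rose were Wipi1 (from 13.3 to 19.6 RPKM, 0.54), Fbxo32 (from 1.79 to 2.79 RPKM), Atg7 (from 13.9 to 15.8 RPKM) and Map1lc3b (from 28.7 to 31.2 RPKM). Lysosomal genes rose in 18 of 33 cases and fell in 5 (median 0.16), with Ctsk, cathepsin K, rising from 16.1 to 30.2 RPKM (0.89) and Hexa rising from 98.2 to 128 RPKM (0.38). The 5 falls became 2 without control replicate 2 and 3 without control replicate 3 or any 1 knockdown library. Ctsl lost its call in 5 and Tfeb in 6 of 20 settings and Cln3 in 8 of 19, while Galc and Neu1 kept theirs.

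Of 33 cell cycle genes 24 did not pass, 6 rose and 3 fell (median 0.10). Ccnd1, cyclin D1, rose from 12.4 to 26.9 RPKM (1.09), though a neighbouring gene covers 29.5% of its transcript, and the inhibitors Cdkn1a (from 62.4 to 42.2 RPKM, -0.56) and Cdkn2c (from 129 to 91.7 RPKM, -0.49) fell. Ribosomal protein genes mostly did not pass (34 of 45, with 9 rises, 2 falls and a median of 0.05), and the rises became 16 after removal of a length and GC trend and 18 after quantile normalization. Antioxidant genes fell in 15 of 27 cases and rose in 4 (median -0.14), with 2 rises after median-ratio scaling or quantile normalization, in a fit of the 6 libraries alone and without control replicate 1, knockdown replicate 2 or knockdown replicate 3. Hmox1, heme oxygenase, read 174, 182 and 169 RPKM in the controls and 84.4, 84.5 and 87.2 RPKM in the knockdown (-1.03 ± 0.051, adjusted p = 7.58e-10), while Nqo1, another target of NRF2, read 12.7, 12.3 and 12.1 RPKM in the controls and 20.1, 22.2 and 22.1 RPKM in the knockdown (0.77 ± 0.058, adjusted p = 5.20e-08), opposite directions without overlap. Immediate early genes rose in 14 of 22 cases and fell in 2 (median 0.39), with Jun rising from 12.5 to 20.8 RPKM (0.72), Egr1 rising from 22.3 to 32.5 RPKM (0.55), and Atf3 (-0.72) and Klf10 (-0.26) falling. Clock genes fell in 10 of 17 cases and rose in 1, Nr1d2 (median -0.29). Bhlhe40, a repressor that hypoxia also induces, had the largest fall among them (from 16.05 to 8.24 RPKM, -0.92 ± 0.060, adjusted p = 1.26e-08).

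Knockdown of Foxk2 against its own scrambled shRNA controls, in 2 libraries each of 31378303 to 34535916 reads, gave a comparison with no library in common. The sets of libraries also differ in depth and number. The effect of the 2 knockdowns differed for 2257 genes (15.6%) by the contrast of contrasts. Of all 14504 genes tested 5264 changed with Foxk2 knockdown. Of the 5765 genes changed by Foxk1 knockdown 3100 (53.8%) changed in the same direction with Foxk2 knockdown and 208 (3.61%) in the opposite one. Of the 5264 changed by Foxk2 knockdown these were 58.9% and 3.95%. The part of gene level in this overlap was not tested. Medians of lists stood side by side as follows. Glycolysis enzymes had a median of -0.78 with Foxk1 and -0.22 with Foxk2 knockdown, and 9 of 17 differed. The hypoxia list had -0.41 and -0.15, and 14 of 26 differed. Fibroblast markers had 0.84 and 1.26, and 15 of 20 differed. Fatty acid and triglyceride synthesis had -0.56 and -0.55, and 6 of 33 differed, a share near the 15.6% of all genes.

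The 2 targeted genes parted the comparisons. Foxk1 changed by -1.23 with its own knockdown and by 0.30 ± 0.067 (adjusted p = 0.00249) with that of Foxk2, a rise. Differences were ranked only among protein-coding genes, predicted ones aside, that Foxk1 knockdown also changed. The higher group of the Foxk1 comparison had to average at least 2 RPKM. Apart from the 2 targeted genes, the largest lower difference in this ranking was that of Apoa4. For Foxk2 it read 1.07 and 0.877 RPKM in the controls and 1.83 and 1.95 RPKM in the knockdown (0.70 ± 0.16). The difference was -3.93 ± 0.21 (adjusted p = 4.65e-08). Mmp11 fell with Foxk1 knockdown (-0.75) and rose with Foxk2 knockdown (0.76 ± 0.12, adjusted p = 8.56e-05). Inhbb, an activin subunit, also fell with the first (from 6.87 to 4.89 RPKM, -0.44) and rose with the second (1.09 ± 0.13, adjusted p = 7.10e-06). In the opposite sense, Aqp1, a water channel, rose from 5.96 to 10.1 RPKM with Foxk1 knockdown (0.71) and fell with Foxk2 knockdown (-0.56 ± 0.10, adjusted p = 3.98e-04). Ccl8 rose with Foxk1 knockdown but read 0.229 and 0.0588 RPKM in its controls and 0.0624 and 0.397 RPKM in its knockdown for Foxk2, a difference of 1.79 ± 0.42 (adjusted p = 0.00934). Grem1 rose with both, by 2.17 and 0.65 ± 0.11, and the difference was 1.52 ± 0.15 (adjusted p = 1.16e-05).

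**Figure D5:**
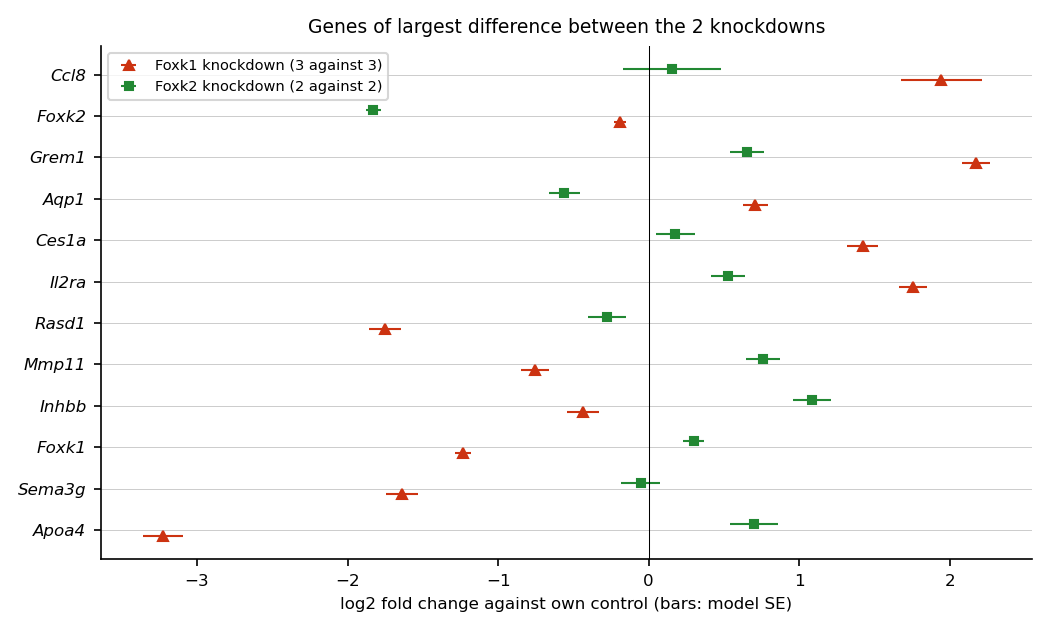
Log2 fold change against the own control for the 12 genes of largest difference between the knockdowns, with triangles for Foxk1 knockdown (3 against 3 libraries), squares for Foxk2 knockdown (2 against 2) and bars of 1 model SE. Apoa4 lies at -3.23 with Foxk1 knockdown and at 0.70 with Foxk2 knockdown, and Mmp11, Inhbb and Aqp1 lie on opposite sides of 0.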

How the data were processed

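The authors deposited RPKM values of 20 libraries over 48440 genes. Tools, per the submitters' processing notes, were HISAT2 2.1.0, Picard 1.141, featureCounts of Subread 1.5.1 and edgeR, with build mm10. Strand is not given in the sources used here. Symbols, coordinates and exon lengths came from GENCODE M21. RPKM times exon length gave whole reads for 25448 genes. For 4697 others the shortest length that made all values whole was used in its place. The reads summed to 16739844 to 20772924 per library here.

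Groups followed the labels. In limma 3.58.1 under R 4.3.3, 8 group means were fitted to log2(RPKM + 0.5) over 20 libraries, the prior variance following the mean (12 residual degrees of freedom). Genes with 0.5 RPKM or more in 2 of the 6 libraries were tested, two-sided, and called at a Benjamini-Hochberg adjusted p under 0.05. The difference from Foxk2 knockdown was a contrast of contrasts. The fit was tested on simulated data.

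The members and gene lists were chosen with earlier results of these data known. Genes named are both factors, the 12 largest rises and falls (changed protein-coding genes other than predicted ones, 2 RPKM or more in the higher group, no overlap), the 10 largest RPKM differences, the 6 largest differences from Foxk2 knockdown in each direction, and in each list up to 6 members of smallest p per direction and, where 5 or fewer went against the majority, all of those. Differences from Foxk2 knockdown were ranked among protein-coding genes, predicted ones aside, that Foxk1 knockdown also changed. The higher group of the Foxk1 comparison had to average 2 RPKM or more. Members that did not pass are named where few, after their values were seen. A few of the genes so chosen are not reported here but stay in the counts.

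Copies were searched with BLAST+ 2.17.0 (99% identity, 100 bases). Promoter letters came from RefSeq, GRCm38.p6. Alternatives were 3 filters, 2 pseudocounts, 4 scalings, 2 smaller fits, a robust prior, voom on recovered reads, a replicate block and each library left out. Tables were made in Python 3.11.15 with pandas 2.3.3, and plots with matplotlib 3.10.9.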

Additional observations from a re-analysis of the deposited data

Results flagged for a closer look

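Each of the following genes changed differently in the 2 knockdowns, by the contrast of contrasts in limma. Values are the log2 fold change of Foxk1 knockdown minus that of Foxk2 knockdown, each against its own control. The targeted genes differed by -1.532 (Foxk1) and 1.639 (Foxk2). Differences were negative for Apoa4 (-3.926), Sema3g, a secreted semaphorin (-1.589), Inhbb (-1.523), Mmp11 (-1.513) and Rasd1 (-1.477). They were positive for Ccl8 (1.792), Grem1 (1.52), Aqp1 (1.269), Ces1a, a carboxylesterase (1.242), and Il2ra (1.233). Sema3g fell from 6.25 to 1.67 RPKM with Foxk1 knockdown and read 1.47 and 1.58 RPKM in its controls and 1.47 and 1.42 RPKM in its knockdown for Foxk2. Ces1a rose from 1.32 to 4.35 RPKM with Foxk1 knockdown and read 0.404 and 0.294 RPKM in its controls and 0.383 and 0.541 RPKM in its knockdown for Foxk2. The sets of libraries differ in depth and number and, as for Sema3g and Ces1a, in the control level of some genes. Changes of genes near 0.5 RPKM are understated on the scale used. The part of these in the differences was not tested.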

How the results depend on the processing

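Replicate numbers do not pair the libraries: the deviations of same-numbered libraries correlated at 0.029, 0.036 and 0.004, and replicates 1 and 2, but not 3, correlated best with their own number. With a replicate block 5400 genes changed (3056 higher, 2344 lower) and the knockdowns differed for 1852. Across the 13 other settings that leave out no library of the comparison the total was 4576 (the 6 libraries alone) to 6091. Leaving out 1 library gave 5073 to 5200 changed genes, 2853 to 3006 higher and 2148 to 2259 lower, and 1863 to 2384 for the difference from Foxk2 knockdown. Foxk1 fell by 1.17 to 1.27 with 1 library left out and fell by 1.13 to 1.46 otherwise. None of these counts over all genes moved by over 1.5 times, no named gene turned direction, and counts within lists that moved further are given beside those lists or here. Of 760 list medians recomputed (38 lists, 20 settings) 59 moved by over 0.05. Falls among ribosomal protein genes were 4 instead of 2 after median-ratio scaling, and rises among forkhead and Sin3 genes 4 instead of 2 after removal of a length and GC trend. Of the genes called, 186 had a mean under 20 reads, where counting error is largest.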

Other observations

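The 13 mRNAs encoded in the mitochondrial genome were picked after their values were seen: 8 did not pass, 5 rose and none fell, and log2 fold changes ran from -0.43 to 0.46 (median 0.19). mt-Cytb, the cytochrome b subunit of complex III, read 5691, 6062 and 6114 RPKM in the controls and 6987, 7816 and 7418 RPKM in the knockdown (0.31 ± 0.061, adjusted p = 7.42e-04), a call lost in 2 of 19 settings, 1 of them quantile normalization. mt-Nd2, of complex I, read 4507, 4793 and 5162 RPKM in the controls and 5389, 5999 and 5785 RPKM in the knockdown (0.25 ± 0.066, adjusted p = 0.00732). The other complex I subunits that rose were mt-Nd5 (from 2018 to 2537 RPKM), mt-Nd6 (from 2289.7 to 3147 RPKM) and mt-Nd4 (from 2349 to 3025 RPKM). The calls of mt-Nd2 and mt-Nd5 were each lost in 1 of 19 settings. Nuclear copies cover 63.6% of mt-Nd4, whose call was lost in 7 of 19 settings, among them without control replicate 1 or 2 and without any 1 knockdown library.

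The direction of calls moved with the level of the gene. Of called genes with a mean under 1 RPKM 73.3% were higher in the knockdown, of those at 1 to 5 RPKM 69.3%, at 5 to 20 RPKM 55.9%, at 20 to 100 RPKM 41.8% and at 100 RPKM or more 42.7%. The share called rose from 23.9% in the lowest class to 60.3% in the highest.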
